A study of Mus musculus with 6 samples.

Results

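The miRNAs described here are both arms of miR-150, a lymphoid miRNA (mmu-miR-150-5p and mmu-miR-150-3p), and 5 rows of the miR-29 family. These are the 3p arms mmu-miR-29a-3p, mmu-miR-29b-3p and mmu-miR-29c-3p and the 5p arms mmu-miR-29a-5p and mmu-miR-29c-5p; the species prefix is left out from here on. They were taken by name from a table of 1626 mouse mature miRNAs, and all 7 were present. The sample labels give total RNA from fetal liver cells of the C57BL/6J strain, made into small RNA libraries. The series' design text names HITS-CLIP, a method that isolates RNA bound to a protein; the counts are read here as miRNA in total RNA, after the sample labels. Libraries 1 to 3 were wild-type (WT), and libraries 4 to 6 came from embryos that lacked both copies of the miR-144/451 locus (miR-144/451-/-, here KO). The fetal liver makes red cells, and miR-144 and miR-451a are erythroid miRNAs. The labels give neither the embryonic day nor whether each library is 1 embryo or a pool, so p-values refer to the spread among libraries, part of which may be technical.

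miRNAs are cut from hairpin precursors that can yield a mature strand from each arm (5p and 3p), and the strand kept by Argonaute, the guide, directs repression of mRNAs that pair with its seed, bases 2 to 8. miR-150-5p is the guide of miR-150, is abundant in mature lymphocytes and represses the transcription factor Myb, which progenitors of the blood need. The guides of the miR-29 family are the 3p arms, which share 1 seed and repress de novo DNA methyltransferases (Dnmt3a, Dnmt3b), collagens and the survival factor Mcl1. The opposite arms are passenger strands that are mostly degraded, and their counts report on the single hairpin they come from.

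RefSeq mature sequences (GRCm38.p6) were found for 6 of the 7 members. The 3 miR-29 guides are shown first because they differ by few bases, which limits how their counts can be read; capitals mark the seed.
miR-29a-3p: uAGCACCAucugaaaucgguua
miR-29b-3p: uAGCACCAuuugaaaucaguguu
miR-29c-3p: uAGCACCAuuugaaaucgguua
The seed AGCACCA was held by these 3 sequences and by no other of the 1679 mature mouse sequences in the RefSeq table. Positions are counted from 1 at the 5′ end. Between miR-29a-3p and miR-29c-3p the substitution was C10U alone. Between miR-29b-3p and miR-29c-3p the first 17 bases were identical, and the substitutions were A18G, G21U and U22A. miR-29b-3p ended in AGUGUU, a hexamer described as a nuclear import element of miR-29b. Among the 1679 sequences, read on the miRNA strand only, 2 ended in AGUGUU (0.119%) and 12 held it anywhere (0.715%).

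The passenger strands are shown because each hairpin gives a different one, also the 2 miR-29b hairpins, which share a guide. These 2 arms were added to the 7 members for that reason.
miR-150-3p: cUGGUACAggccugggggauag
miR-29a-5p: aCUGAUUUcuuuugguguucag
miR-29b-1-5p: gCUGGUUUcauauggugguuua
miR-29b-2-5p: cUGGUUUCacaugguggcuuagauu
miR-29c-5p: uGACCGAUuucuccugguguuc
No seed was shared among these 5 passenger strands.

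The miR-29 hairpins form 2 clusters. In GRCm38, Mir29a (chr6:31062660-31062747) and Mir29b-1 (chr6:31063023-31063093) lie on the minus strand of chromosome 6, 275 bases apart; Mir29b-1 overlaps the edge of the lincRNA gene Gm27019 in GENCODE M21, and Mir29a overlaps no other annotated gene. Mir29b-2 (chr1:195037040-195037120) and Mir29c (chr1:195037547-195037634) lie on the plus strand of chromosome 1, 426 bases apart, within an exon of the noncoding transcript A330023F24Rik and opposite an exon of Cd46, a complement regulator. Both miR-29b hairpins give the same mature miR-29b-3p, so its counts cannot be split between the clusters. Mir150 (chr7:45121757-45121821, plus strand) overlaps no other gene.

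Libraries held 16243894 to 27089133 miRNA counts. The miR-144/451 products made up 20.6% ± 3.29 of the WT libraries and 0.0226% ± 0.000985 of the KO libraries (mean ± SD, n = 3 per genotype). All 6 libraries matched their genotype labels, and the WT libraries held the erythroid miRNAs of this tissue. Levels below are counts per 1000000 (CPM) after TMM scaling, which sets the typical miRNA outside the locus near no change (median log2 fold -0.01 over 873 tested miRNAs). With no scaling factor that median was 0.34, since other miRNAs fill the share the locus leaves. Counting error alone sets a limit of 0.111 to 0.185 CPM for a count of 0.

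In fetal liver miR-29a-3p was by far the most abundant of these miRNAs and miR-150-3p the least. The ranks of miR-29a-3p among all listed miRNAs were 68 to 87 over the 6 libraries. miR-29b-3p and miR-29c-3p followed, ranked 134 to 183 and 139 to 188, then miR-150-5p, ranked 288 to 362. Among the passenger strands the order was miR-29a-5p (ranks 373 to 408), miR-29b-1-5p (428 to 480), miR-29c-5p (425 to 501), miR-29b-2-5p (553 to 679) and miR-150-3p (705 to 1038). The CPM ranges of miR-29b-3p and miR-29c-3p overlapped within each genotype, as did those of miR-29b-1-5p and miR-29c-5p; every other pair of neighbours was separated in both genotypes. All these strands are 22 to 25 bases long or have no length given here, and ligation efficiency, which differs between sequences, was not measured.

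**Figure D1:**
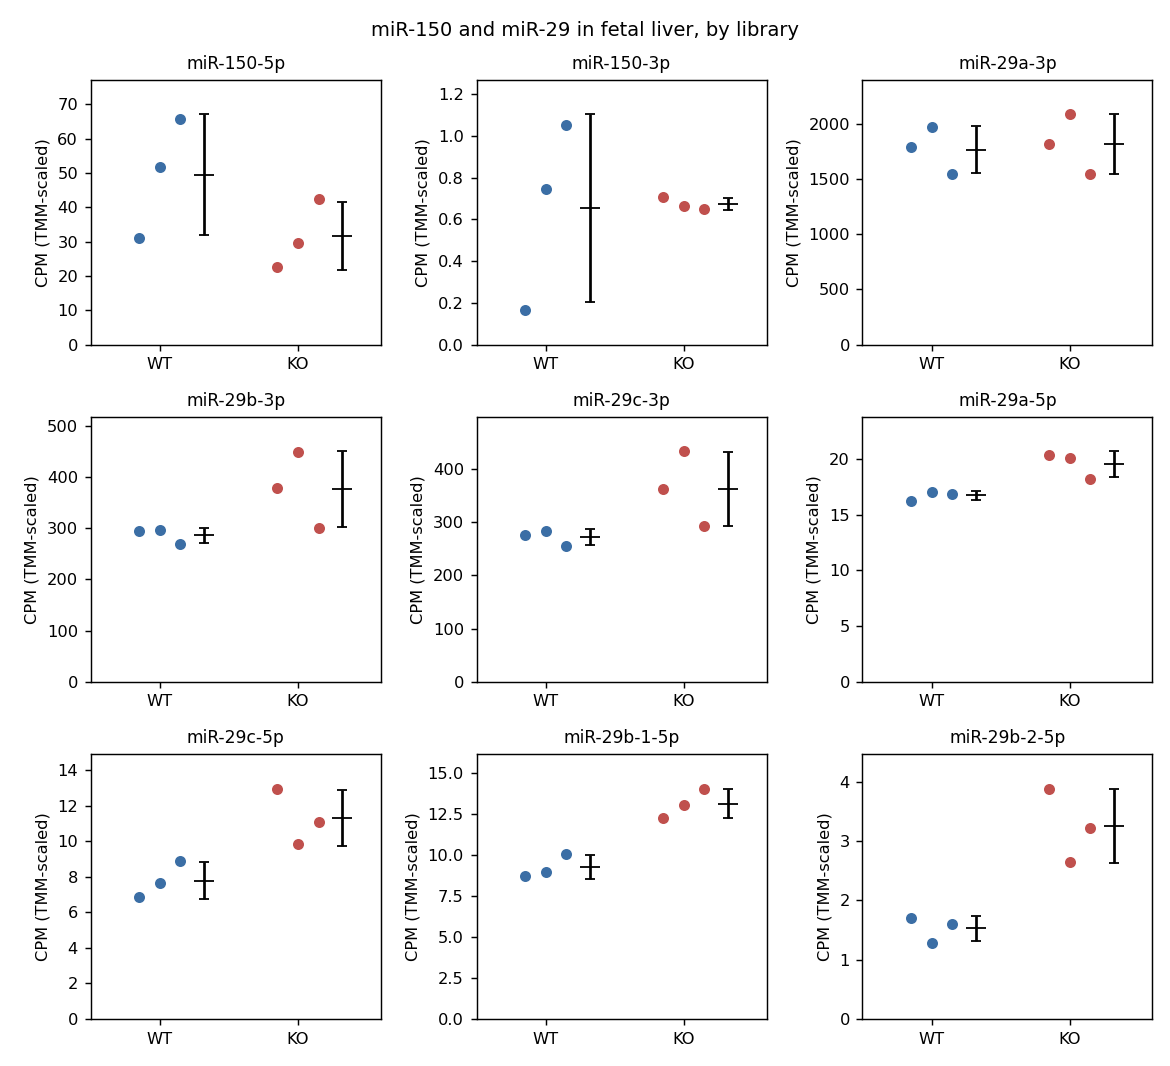
TMM-scaled CPM (linear axes from 0) of the 7 members and the 5p arms of miR-29b in 3 WT (blue) and 3 KO (red) libraries; points are libraries in the order 1 to 6, bars mean and SD. miR-29a-3p spans 1544 to 2084 CPM with the genotypes overlapping, while miR-29b-2-5p lies at 1.28 to 1.69 CPM in WT and 2.65 to 3.88 CPM in KO.

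Of the 7 members 0 passed the test between genotypes (edgeR quasi-likelihood test, Benjamini-Hochberg adjusted p under 0.05), a threshold that 0.458% of the 873 tested miRNAs outside the locus passed. DESeq2 and limma-voom also called 0 of them. One member, miR-29c-5p, had an unadjusted p under 0.05. Unadjusted, 9.62% of tested miRNAs were higher in KO at that level and 1.37% lower. All 7 passed the filter on low counts. Folds were above 0 for 6 members and below 0 for 1, with a median log2 fold of 0.22.

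miR-150-5p, the lymphoid guide, was lower on average in KO, but its spread within each genotype was wide. The WT libraries held 30.9, 51.9 and 65.8 CPM, the KO libraries 22.7, 29.6 and 42.3 CPM. WT library 1 lay below KO library 6, so the groups overlapped. The mean was 49.5 ± 17.6 CPM for WT against 31.5 ± 9.93 CPM for KO (SD over 3 libraries). The log2 fold was -0.65 (SE 0.35, 95% interval -1.49 to 0.19; edgeR adjusted p = 0.545), and -0.30 with no scaling factor. The interval included 0, so a lower level in KO was not shown. If there is one, fewer lymphoid cells and less miR-150 per cell cannot be told apart in bulk tissue.

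The passenger miR-150-3p was close to the limit of detection. The WT libraries gave 3, 18 and 21 raw counts and the KO libraries 14, 12 and 17. The single low library was WT library 1, whose 3 counts have an exact Poisson 95% interval of 0.619 to 8.77. The log2 fold was 0.03 (SE 0.59, 95% interval -1.38 to 1.43; edgeR adjusted p = 0.999), and it was -0.41 without WT library 1.

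Within each genotype miR-150-5p followed the same order of libraries as the hepatocyte miRNAs. The summed level of 5 hepatocyte miRNAs (miR-122-5p, miR-122-3p, miR-192-5p, miR-194-5p and miR-802-5p) was 34270, 56532 and 133076 CPM in WT libraries 1 to 3. It was 42683, 49638 and 103310 CPM in KO libraries 4 to 6. WT library 3 and KO library 6 were therefore highest in their genotype for both, and the part of hepatocyte content in the miR-150 values was not tested. Those libraries were also highest in their genotype for the summed mesenchymal list (3156 and 2979 CPM) and endothelial list (10523 and 11046 CPM). The share of all miRNAs with the same order of libraries was not counted. miR-122-5p made up most of the hepatocyte sum, with 117798 CPM in WT library 3 and 92264 CPM in KO library 6. Between genotypes the order differed. The hepatocyte sum was higher in KO library 4 than in WT library 1, while miR-150-5p was lower (22.7 against 30.9 CPM). Among the 229 other tested miRNAs that averaged 100 CPM or more, those whose centred log2 profile over the 6 libraries lay nearest to miR-150-5p were miR-99b-5p, miR-127-3p and miR-146a-5p. Their root-mean-square distances were 0.23, 0.25 and 0.26 log2 units, against a median of 0.51 over all 229 and a distance of 0.51 between miR-150-5p and a flat profile. miR-127-3p comes from the imprinted Dlk1-Dio3 domain, and miR-146a-5p restrains inflammatory signalling. As an example, miR-99b-5p measured 305.1, 323.6 and 612.9 CPM in the WT libraries and 211.7, 232.6 and 403.2 CPM in the KO libraries. These 3 miRNAs were picked as the nearest profiles, so their likeness to miR-150-5p follows from the choice. The miR-146a-5p row differed from the row of miR-146b-5p by 0.0453% to 0.24% in raw counts, so these 2 cannot be read apart.

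**Figure D2:**
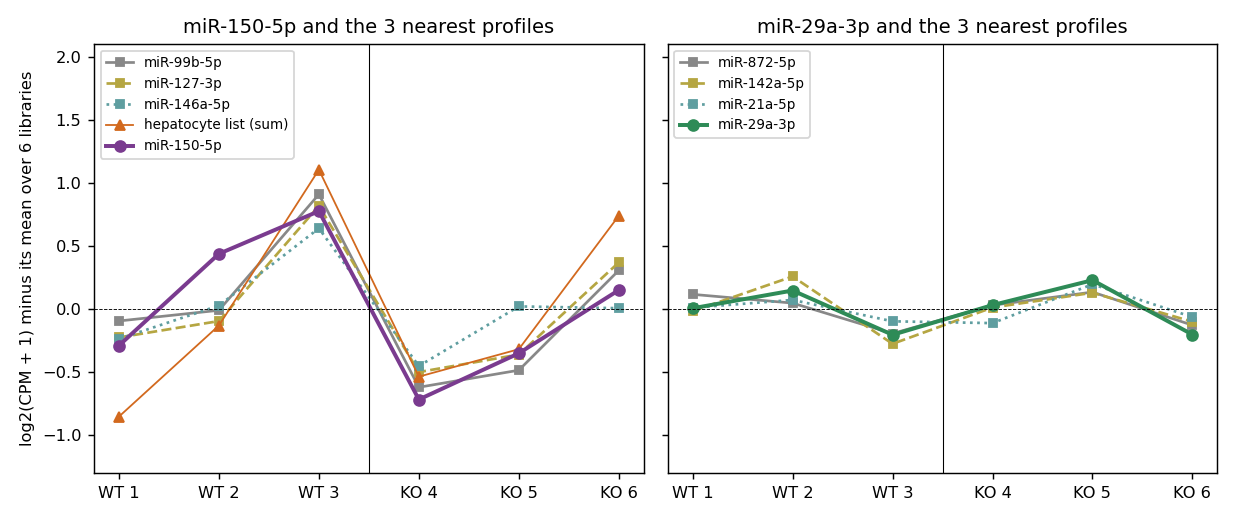
Log2(CPM + 1) minus its mean over the 6 libraries (y axis, log2 units) by library for miR-150-5p with its 3 nearest profiles and the summed hepatocyte list (left), and for miR-29a-3p with its 3 nearest profiles (right). miR-150-5p is highest in WT library 3 and lowest in KO library 4; the miR-29a-3p profiles are nearly flat.

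Other miRNAs listed as lymphoid gave no call either. The list held miR-181a-5p, miR-181b-5p, miR-342-3p, miR-342-5p, miR-155-5p, miR-146a-5p and miR-128-3p. Of these, 0 of 7 passed the edgeR test, against 0.458% of tested miRNAs, a share at which 0 calls say little. Folds were above 0 for 1 and below 0 for 6, and 47.7% of tested miRNAs had a fold above 0. The median log2 fold was -0.32 against -0.01 over all tested miRNAs. The summed level of the list under TMM scaling was 7195 to 7609 CPM in WT and 5705 to 6369 CPM in KO. Its most abundant members were miR-181a-5p and miR-181b-5p. The sum was not taken under other scalings, and no share of such sums over all miRNAs was counted. Whether the list is specific to lymphoid cells was not tested, so its sum is not a measure of lymphoid content. miR-181a-5p, which sets T-cell receptor sensitivity, measured 2678, 2877 and 2609 CPM in the WT libraries and 2028, 2151 and 2084 CPM in the KO libraries, with no overlap (log2 fold -0.38, SE 0.12; edgeR adjusted p = 0.271). With no scaling factor the log2 fold of miR-181a-5p was -0.02, and those of miR-181b-5p and miR-146a-5p were 0.08 and 0.04. Over all tested miRNAs 5.61% were lower in KO without overlap. miR-181b-5p, from the same clusters, had a log2 fold of -0.28 (SE 0.13; edgeR adjusted p = 0.492).

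Of the miR-29 guides, miR-29a-3p differed between the genotypes by less than the spread of the libraries. The WT libraries held 1786, 1969 and 1544 CPM, the KO libraries 1818, 2084 and 1545 CPM. The ranges nearly coincided. Mean levels were 1767 ± 213.5 CPM (WT) and 1816 ± 269.4 CPM (KO; SD over 3 libraries). The log2 fold of 0.04 (SE 0.17, 95% interval -0.36 to 0.44; edgeR adjusted p = 0.999) turned negative with DESeq2, RLE scaling or the locus removed before scaling. Its nearest profiles were miR-872-5p, miR-142a-5p, a miRNA of all blood lineages, and miR-21a-5p, at distances of 0.08, 0.08 and 0.10 log2 units. These profiles were nearly flat, and miR-29a-3p itself lay only 0.16 from a flat profile.

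miR-29b-3p measured 293.8, 295.6 and 269.8 CPM in the WT libraries and 378.9, 448.2 and 300.3 CPM in the KO libraries. Under TMM scaling the KO libraries lay above the WT libraries without overlap, as in 15.9% of tested miRNAs. KO library 6 lay just above the highest WT library. The miR-29b-3p groups overlapped with RLE scaling, upper-quartile scaling or the locus removed before scaling. The log2 fold was 0.39 (SE 0.19, 95% interval -0.06 to 0.85; edgeR adjusted p = 0.513). For miR-29c-3p the WT libraries held 275.8, 283.8 and 254.7 CPM and the KO libraries 362, 432.5 and 292.8 CPM, in the same pattern. Its log2 fold was 0.42 (SE 0.19, 95% interval -0.04 to 0.87; edgeR adjusted p = 0.49). The miR-29c-3p groups overlapped with RLE scaling or the locus removed before scaling. Without KO library 5, the highest of the 6, the log2 folds were 0.22 for miR-29b-3p and 0.25 for miR-29c-3p.

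The rows of miR-29b-3p and miR-29c-3p cannot be read as separate signals. In raw counts miR-29b-3p exceeded miR-29c-3p by 6.50%, 4.18% and 5.92% in WT and by 4.68%, 3.64% and 2.58% in KO. The excess was only 197 to 336 counts per library, beside 5048 to 8116 counts in either row. For the 5 other members and the 5p arms of miR-29b, the nearest row of the table by counts differed by at least 16.9% in some library. The sequences of the pair share their first 17 bases, and nothing in the sources used here says how reads that match more than 1 miRNA were assigned.

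The balance between miR-29a-3p and the miR-29b/29c signal differed between the genotypes without overlap. miR-29a-3p exceeded miR-29b-3p 6.08-fold, 6.66-fold and 5.72-fold in WT libraries and 4.80-fold, 4.65-fold and 5.15-fold in KO libraries. Means were 6.16 ± 0.474 and 4.86 ± 0.255 (SD, n = 3 each). This ratio is taken within a library, so no scaling factor enters it. It was chosen after its values were seen and was not tested, and 3 against 3 libraries cannot give an exact permutation p below 0.1. The share of all miRNA pairs whose ratio separates the genotypes was not counted. Of single tested miRNAs, 15.9% were higher and 5.61% lower in KO without overlap.

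**Figure D3:**
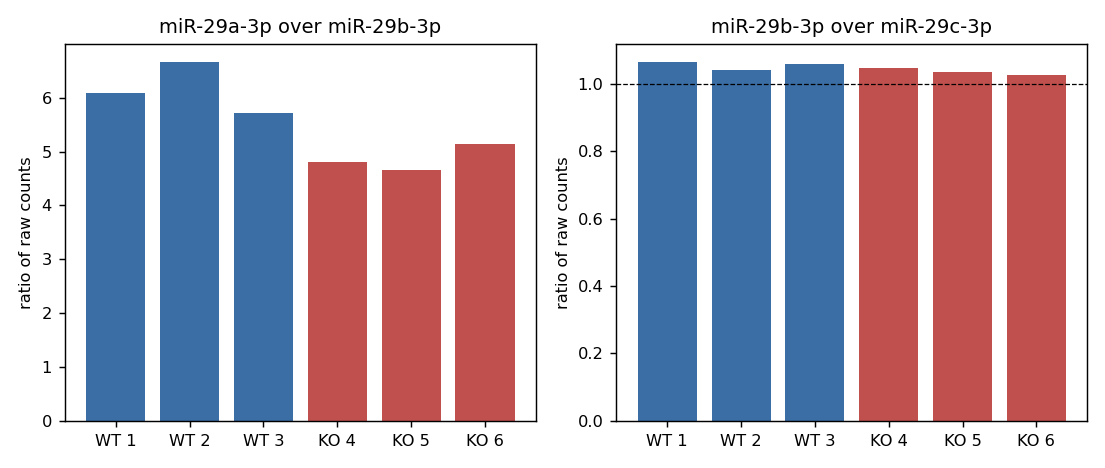
Ratio of raw counts per library (bars from 0) for miR-29a-3p over miR-29b-3p (left) and miR-29b-3p over miR-29c-3p (right), WT blue and KO red; the dashed line marks equal counts. The left ratio is 5.72 to 6.66 in WT and 4.65 to 5.15 in KO, while the right one stays between 1.03 and 1.07.

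As a share of all miRNA counts the 3 guides together took 0.205% ± 0.0233 in WT and 0.29% ± 0.0505 in KO (SD, n = 3 each). Out of the counts outside the miR-144/451 locus the shares were 0.259% ± 0.0279 and 0.29% ± 0.0505, and the library values overlapped. If miR-29b-3p and miR-29c-3p count the same reads, the first pair of shares becomes 0.181% ± 0.0217 and 0.249% ± 0.0423 with miR-29c-3p left out.

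The miR-29 passenger strands, which tell the hairpins apart, all had folds above 0. miR-29a-5p, of the chromosome 6 cluster, measured 16.2, 17.1 and 16.9 CPM in the WT libraries and 20.3, 20.05 and 18.2 CPM in the KO libraries (log2 fold 0.22, SE 0.17; edgeR adjusted p = 0.647). Its neighbour miR-29b-1-5p measured 8.69, 8.95 and 10.1 CPM in the WT libraries and 12.3, 13.0 and 14.0 CPM in the KO libraries (log2 fold 0.51, SE 0.18; edgeR adjusted p = 0.329). In the chromosome 1 cluster, miR-29c-5p measured 6.83, 7.66 and 8.86 CPM in the WT libraries and 13.0, 9.83 and 11.1 CPM in the KO libraries (log2 fold 0.54, SE 0.21; edgeR adjusted p = 0.383). All 3 strands were higher in KO without overlap, as were 15.9% of all tested miRNAs, but miR-29a-5p overlapped when RLE scaling was used or the locus was taken out first. Without KO library 4 the log2 folds were 0.12 for miR-29a-5p and 0.35 for miR-29c-5p.

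miR-29b-2-5p had the largest fold of the rows described. It had 31, 31 and 32 raw counts across the WT libraries and 77, 48 and 84 across the KO libraries. The exact Poisson 95% intervals ran from 21.1 to 45.2 over the WT libraries and from 35.4 to 104 over the KO libraries. After scaling the WT mean was 1.53 ± 0.215 CPM and the KO mean 3.25 ± 0.617 CPM (SD over 3 libraries), which gave a log2 fold of 1.09 (SE 0.26, 95% interval 0.47 to 1.71). Its unadjusted edgeR p was 0.00428, and it did not pass over all miRNAs (adjusted p = 0.171). The Poisson intervals take in counting error alone, because reads that carry no molecular identifier may be copies of 1 molecule.

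Over the 7 miR-29 rows (5 members and the 5p arms of miR-29b), all 7 folds were above 0, with a median log2 fold of 0.42, and 47.7% of all tested miRNAs had a fold above 0. In 6 of the 7 rows all 3 KO libraries lay above all 3 WT libraries, against 15.9% of tested miRNAs. The rows share hairpins, cluster transcripts and, for miR-29b-3p and miR-29c-3p, nearly equal counts, so they are not 7 separate observations. The count depended on the scaling. It was 3 of 7 with RLE scaling (11.9% of tested miRNAs) or with the locus removed before scaling (11.1%), 5 with upper-quartile scaling (17.4%) and 6 with no scaling factor (31.3%). These rows leave out miR-150 and add the 5p arms of miR-29b. Of the 7 members, 4 were higher in KO without overlap under TMM scaling or with no scaling factor. That number was 3 with upper-quartile scaling and 1 with RLE scaling or the locus removed before scaling. The 3 rows without overlap under every scaling were miR-29c-5p, miR-29b-1-5p and miR-29b-2-5p. Only miR-29c-5p among them is a member. The share of all tested miRNAs without overlap under every scaling was not counted. With no scaling factor edgeR called miR-29b-1-5p (adjusted p = 0.0389) and miR-29b-2-5p (adjusted p = 0.0315), relative to library totals that include the lost locus.

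**Figure D4:**
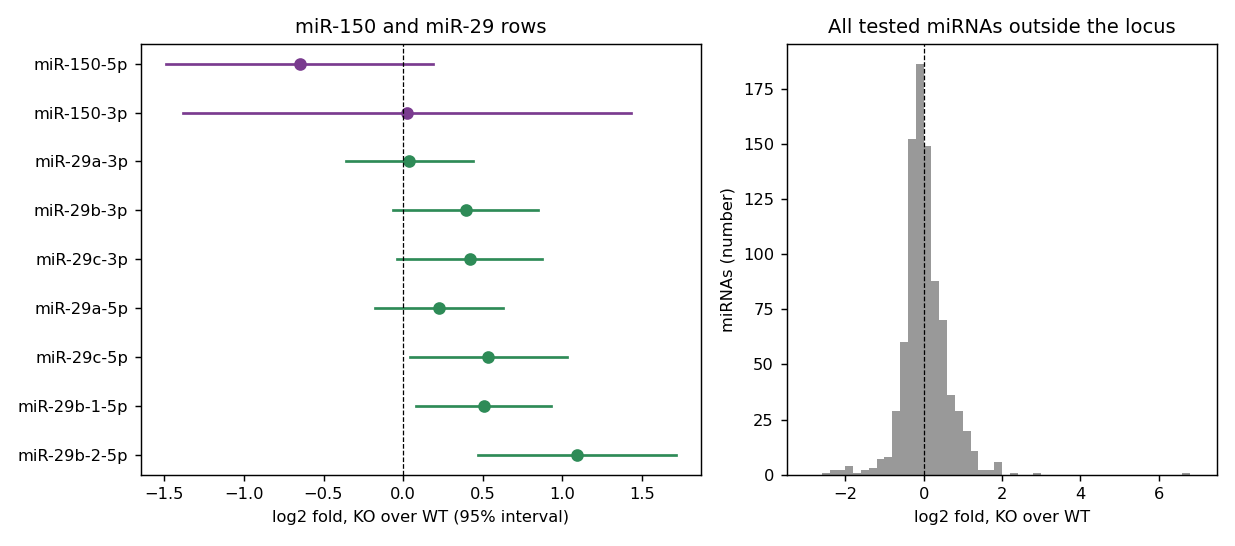
Left, log2 fold of KO over WT with 95% intervals from edgeR for the miR-150 (purple) and miR-29 (green) rows; right, number of miRNAs by log2 fold for all 873 tested outside the locus. The miR-29 folds run from 0.04 to 1.09 and that of miR-150-5p is -0.65.

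The chromosome 1 passenger strands (miR-29b-2-5p and miR-29c-5p summed) were compared with those of chromosome 6 (miR-29a-5p and miR-29b-1-5p summed). The ratio was 0.342, 0.344 and 0.388 in WT and 0.517, 0.377 and 0.444 in KO. KO library 5 lay below WT library 3, so this balance overlapped between the genotypes. Between the 2 miR-29b hairpins, miR-29b-2-5p over miR-29b-1-5p was 0.195, 0.144 and 0.159 in WT and 0.317, 0.203 and 0.23 in KO.

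The choice of arm was compared next. For miR-150 the 5p arm made up 98.8% ± 0.564 of hairpin counts in WT and 97.8% ± 0.748 in KO (SD, n = 3 each). For miR-29a the 5p arm made up 0.947% ± 0.118 and 1.07% ± 0.109, and for miR-29c 2.80% ± 0.496 and 3.11% ± 0.772, where the miR-29c-3p counts carry the uncertainty given above. Most counts of each hairpin thus came from the arm named above as its guide. Hairpins were tested where both arms averaged 10 counts or more. Of 263 such hairpins a moderated limma fit with a trend, on log2((5p + 1)/(3p + 1)) per library, called 0 (0% of those tested); 5.7% had an unadjusted p under 0.05, and edgeR's interaction test also called 0. The log2 ratio changed by -0.96 for miR-150 (SE 0.38; limma adjusted p = 0.66), 0.19 for miR-29a (SE 0.19; 0.931) and 0.13 for miR-29c (SE 0.25; 0.95). The miR-150 value was -0.57 without WT library 1, which held 3 counts of the 3p arm.

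Markers of the other cell types in the tissue did not differ by a call: 0 of the 21 tested in the other lists passed, against 0.458% of the 873 tested miRNAs. At that share a count of 0 says little about cell content. Summed levels in WT and KO were 44282 to 54840 and 36794 to 55068 CPM for 4 miRNAs of the myeloid list, and 44000 to 82756 and 49878 to 69926 CPM for 2 erythroid ones outside the locus. They were 2286 to 3156 and 2052 to 2979 CPM for 5 mesenchymal ones, and 7323 to 10523 and 7734 to 11046 CPM for 2 endothelial ones. The myeloid list includes both arms of miR-142a, found in all blood lineages, so its sum is not specific to myeloid cells. Its row miR-223-3p measured 16048, 20383 and 15316 CPM in WT and 8636, 16013 and 10594 CPM in KO, with overlap (log2 fold -0.55, SE 0.24, edgeR adjusted p = 0.459). In that list 2 folds were above 0 and 2 below. The 3 muscle miRNAs summed to 400.3 CPM for WT library 1, to 83.5 CPM for KO library 4 and to 13.3 to 20.5 CPM elsewhere. The hepatocyte list had 1 fold above 0 and 4 below, with miR-122-5p, its most abundant member, at -0.19 (SE 0.56). No marker of any list was at 0 in all libraries. miRNAs known to act on the same targets as these families (miR-15a-5p, miR-16-5p and miR-34a-5p on Myb, miR-148a-3p, miR-148b-3p and miR-152-3p on DNA methyltransferases) had 1 fold above 0, 5 below and 0 calls, with a median log2 fold of -0.20. Their part in the miR-150 and miR-29 values was not tested.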

How the data were processed

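The authors deposited raw read counts per mature miRNA for 6 small RNA libraries, with a percent column that equals each count over its library total, per the file headers and the values (largest difference 5.0e-09). Per the submitters' processing notes reads were trimmed with cutadapt; the aligner, annotation and build are not given in the sources used here. Counts were fitted in R 4.3.3 with edgeR 4.0.16 (filterByExpr, TMM, glmQLFit and glmQLFTest) over 876 miRNAs, 750 being left out; Benjamini-Hochberg adjusted p under 0.05 was called. SE is the absolute log2 fold over the square root of F, an approximation. Alternatives were DESeq2 1.42.0, limma-voom (limma 3.58.1), other scalings and filters, and leaving out each library. Replicates did not match within sampling noise (chi-square per degree of freedom 106 to 1639). The fits were tested on simulated data with a single spread for all miRNAs and without loss of the locus. That test gives no error rate for the rows described. Sequences are from RefSeq. Members and lists were chosen with earlier results of these data known. Named miRNAs were the members, the miR-29b 5p arms, the 3 nearest profiles of the most abundant miR-150 and miR-29 rows, and up to 2 abundant members per list.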

Additional observations from a re-analysis of the deposited data

How the results depend on the processing

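No member was called under any of the alternatives run, including each library left out. The number of other miRNAs called moved. It was 4 higher and 0 lower, against 10 higher and 2 lower with DESeq2, 58 higher with no scaling factor, 1 higher with RLE scaling, upper-quartile scaling or the locus removed before scaling, and 0 to 1 higher without single libraries. Small folds changed sign. With DESeq2, RLE scaling and the locus removed before scaling, in that order, the log2 fold was -0.0152, -0.0273 and -0.0196 for miR-150-3p and -0.0143, -0.0213 and -0.0427 for miR-29a-3p. It was -0.0367, -0.0439 and -0.0654 for miR-872-5p, -0.0443, -0.0513 and -0.0733 for miR-142a-5p and -0.0417, -0.0488 and -0.065 for miR-21a-5p. With no scaling factor it was 0.0366 for miR-146a-5p, 0.0822 for miR-181b-5p and 0.15 for miR-122-5p. Leaving out single libraries gave ranges of -0.41 to 0.47 for miR-150-3p, -0.11 to 0.13 for miR-29a-3p, -0.13 to 0.0851 for miR-872-5p, -0.17 to 0.0938 for miR-142a-5p, -0.11 to 0.0371 for miR-21a-5p and -0.71 to 0.46 for miR-122-5p, and -0.00332 to 0.36 for the miR-29c arm ratio. The cause of these changes was not tested. The folds of miR-150-5p and of the 6 other miR-29 rows kept their sign without each library and under each scaling. Without single libraries they ran from -0.92 to -0.46 for miR-150-5p, 0.22 to 0.51 for miR-29b-3p, 0.25 to 0.53 for miR-29c-3p, 0.12 to 0.26 for miR-29a-5p, 0.35 to 0.60 for miR-29c-5p, 0.43 to 0.50 for miR-29b-1-5p and 0.86 to 1.19 for miR-29b-2-5p. With no scaling factor they were -0.30 for miR-150-5p, 0.40 for miR-29a-3p, 0.76 for miR-29b-3p, 0.78 for miR-29c-3p, 0.59 for miR-29a-5p, 0.91 for miR-29c-5p, 0.86 for miR-29b-1-5p and 1.46 for miR-29b-2-5p.

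No paired analysis was possible because WT libraries are numbered 1 to 3 and KO libraries 4 to 6, with no shared number. Depth limits miR-150-3p and miR-29b-2-5p, at 3 to 84 counts per library. The arm ratio of miR-150 could not be fitted at a mean of at least 50 counts, and miR-29c-5p, miR-29b-2-5p and miR-150-3p dropped out at a mean of at least 10 CPM.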
